A study of Homo sapiens with 6 samples.

Results

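The hypoxia-induced target genes of the hypoxia-inducible factors (HIF) were followed in HepG2 cells, a human liver tumour line. The 10 genes were VEGFA, CA9, ADM, PDK1, NDRG1, EGLN3, PFKFB4, BNIP3L, P4HA1 and ANKRD37, each read through 1 transcript probe set named by its Ensembl ID, with no threshold on the measured values but with earlier results of these arrays known. All 10 IDs were found among the 65527 probe sets of the study. The treated cells were HepG2 exposed for 24 hours to 24 mM boric acid, a weak acid of boron, which is the half-maximal inhibitory concentration according to the labels (3 arrays), and the others were untreated HepG2 cells (3 arrays). Both groups grew in low-glucose, HEPES-buffered medium with serum, and the labels used here state no oxygen level, cell density or medium pH. Whether the 3 samples of a condition were grown separately is not stated. The p-values therefore set each difference only against the spread among these samples, part of which may be technical.

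The gene names came with the list of IDs. The deposited table does not pair IDs with names, and 0 of its 65527 IDs matched the reference table of 59792 genes. The names could therefore not be checked here, and neither could liver markers or markers of other cell types (26 genes listed), nor 59 further genes of the HIF pathway. Other transcripts of the 10 genes were not analysed here. Values are RMA signals on the log2 scale, and they compare arrays within a gene, since probe affinity differs between genes.

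HIF is a pair of proteins, an oxygen-regulated alpha subunit and the stable partner ARNT. With oxygen present, prolyl hydroxylases of the EGLN family mark the alpha subunit, and the VHL ubiquitin ligase then has it degraded. When oxygen is low the alpha subunit persists, and the pair binds a short core motif near genes for vessel growth, acid export, glycolysis, collagen hydroxylation and mitochondrial turnover. In liver tissue, oxygen falls along the path of the blood towards the central vein, and HIF target genes are widely used as readouts of low oxygen in liver tumours.

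The promoters of the genes show where that core motif occurs. RefSeq windows (build GRCh38.p14, 250 bases before to 50 after a start, 300 in all) were matched for 7 of the 10 genes, and the letters ACGTG or GCGTG were searched on both strands, overlapping matches being joined. VEGFA, NDRG1 and BNIP3L are named only. The 7 genes had 8 windows, of which 6 held a match, against 48.4% of all 35116 windows. With ACGTG alone the count was 4 of 8 windows, against 21.4% of all. EGLN3 had no match in its window, and PFKFB4 had 1 match of GCGTG. The 250 bases before the start are printed for 5 genes: ADM, which rose in boric acid, PDK1, which fell, and P4HA1, CA9 and ANKRD37, which did not pass the test and hold ACGTG matches. Capitals mark the motif, which reads CACGT where it lies on the opposite strand.
ADM: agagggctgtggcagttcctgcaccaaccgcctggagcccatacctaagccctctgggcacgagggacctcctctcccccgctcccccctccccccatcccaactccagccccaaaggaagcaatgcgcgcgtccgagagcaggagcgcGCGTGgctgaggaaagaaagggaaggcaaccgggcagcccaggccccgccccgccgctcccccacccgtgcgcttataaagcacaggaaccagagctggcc
PDK1: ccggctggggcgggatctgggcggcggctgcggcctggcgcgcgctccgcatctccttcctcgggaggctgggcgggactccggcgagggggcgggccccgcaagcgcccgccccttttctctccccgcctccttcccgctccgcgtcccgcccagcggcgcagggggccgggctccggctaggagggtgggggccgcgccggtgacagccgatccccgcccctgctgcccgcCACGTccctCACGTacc
P4HA1: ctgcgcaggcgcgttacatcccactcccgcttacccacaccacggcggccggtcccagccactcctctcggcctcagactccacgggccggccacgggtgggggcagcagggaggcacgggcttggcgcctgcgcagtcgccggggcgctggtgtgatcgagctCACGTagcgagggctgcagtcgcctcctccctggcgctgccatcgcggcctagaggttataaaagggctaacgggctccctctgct
CA9: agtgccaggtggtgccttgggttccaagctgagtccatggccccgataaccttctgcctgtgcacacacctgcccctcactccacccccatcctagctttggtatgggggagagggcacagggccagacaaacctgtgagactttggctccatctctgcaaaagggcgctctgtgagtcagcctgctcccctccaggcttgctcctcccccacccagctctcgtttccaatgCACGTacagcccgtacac
ANKRD37: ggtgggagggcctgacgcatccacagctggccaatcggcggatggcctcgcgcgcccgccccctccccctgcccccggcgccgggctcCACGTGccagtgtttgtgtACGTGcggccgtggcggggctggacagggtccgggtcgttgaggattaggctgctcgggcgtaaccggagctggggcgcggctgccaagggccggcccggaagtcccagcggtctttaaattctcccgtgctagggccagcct
The ADM window lies at chr11:10304823-10305072 on the plus strand, with its match from base -101 to -97 before the start. That of PDK1 lies at chr2:172555840-172556089 (plus strand), with matches from -17 to -13 and from -8 to -4. A second PDK1 window held none. The P4HA1 window is chr10:73096867-73097116 on the minus strand (match from -86 to -82), and that of CA9 is chr9:35673678-35673927 on the plus strand (match from -18 to -14). ANKRD37, at chr4:185396591-185396840 on the plus strand, holds 2 separate matches, from -162 to -157 and from -143 to -139. A match describes letters in these windows and was not tested for binding.

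The 10 genes did not all change in the same direction in boric acid. ADM, the precursor of the vasodilator peptide adrenomedullin, rose 3.40-fold. BNIP3L, a receptor for the removal of mitochondria, fell by 1.34 on the log2 scale, and PDK1, the kinase that shuts off pyruvate dehydrogenase, fell by 1.21. The other 7 did not pass the test. A probe set was tested if its signal exceeded the table's median (6.89) on at least 3 of 6 arrays, and 7 of the 10 genes passed this filter, all but EGLN3, PFKFB4 and ANKRD37. Calls are limma p-values below 0.05 after Benjamini-Hochberg adjustment over the whole tested table. By that rule 42.2% of the 33710 tested probe sets were called, 23.0% as higher and 19.2% as lower in boric acid. In the fit of all 65527 probe sets without a filter, 3 of the 10 genes were called, 1 higher and 2 lower, against 24.1% of all probe sets (12.4% higher and 11.7% lower). The count of 3 is near the background and is no result about the genes as a group. The 3 boric acid arrays lay wholly above the 3 control arrays for 1 gene and wholly below them for 4, against 20.8% and 19.6% of all probe sets. The median log2 fold change of the 10 genes was -0.43, against 0.00 over all probe sets. This median includes control array 1, the highest control array for all 10 genes, and every estimate was higher without that array.

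**Figure D1:**
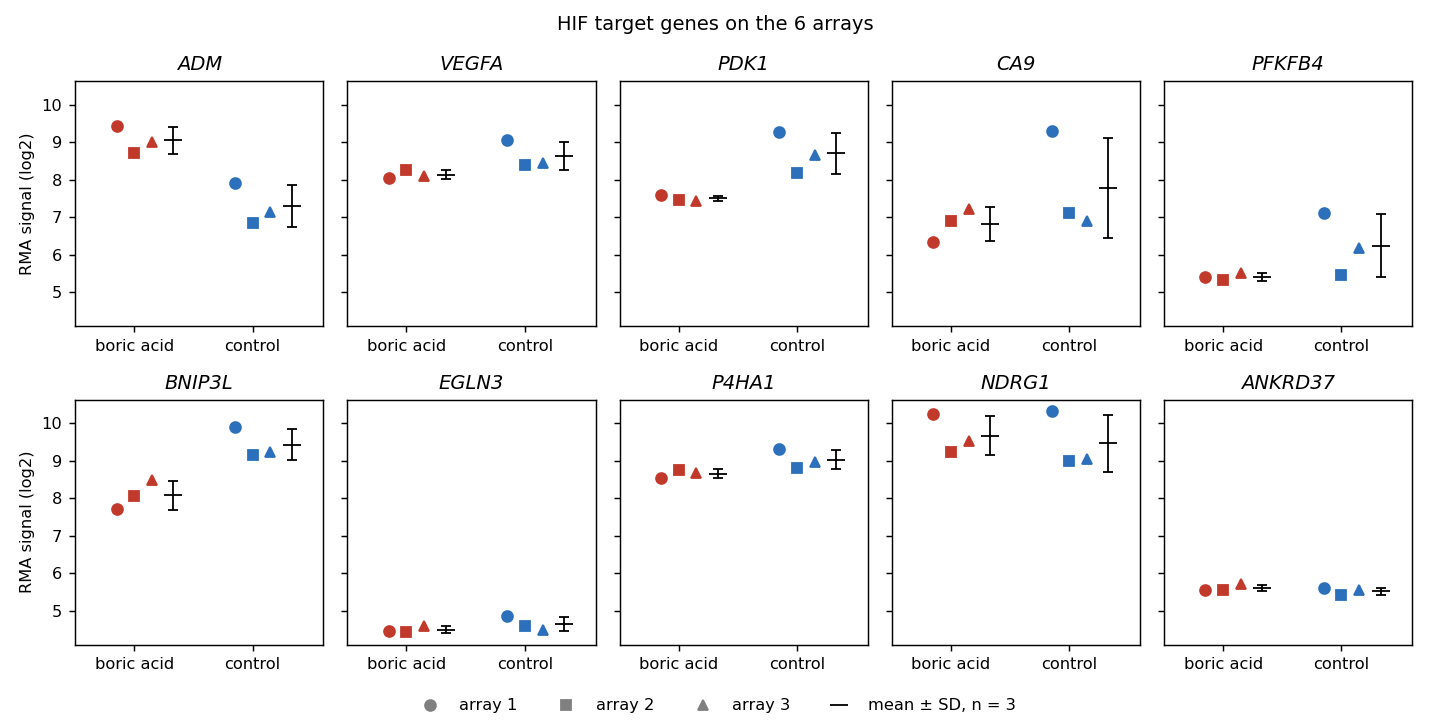
RMA signal (log2, vertical axis) of the 10 genes on each array. Red symbols are boric acid arrays and blue symbols are control arrays, with the array's replicate number as the shape, and black bars give the mean ± SD (n = 3). Levels are comparable within a panel. The boric acid arrays of ADM lie above its control arrays, those of PDK1 and BNIP3L lie below theirs, and control array 1 (blue circle) is the highest control in all 10 panels.

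Of the 2 secreted factors, only ADM passed the test. ADM (ENST00000278175.9) had log2 signals of 9.43, 8.72 and 9.02 on boric acid arrays 1 to 3, against 7.91, 6.83 and 7.13 on control arrays 1 to 3. Every boric acid array lay above every control array, with 0.80 between the closest. The means were 9.06 ± 0.36 on boric acid arrays and 7.29 ± 0.56 on control arrays (SD, n = 3 each). The log2 fold change was 1.77 with a standard error of 0.29 (limma, adjusted p = 0.00359), which is 3.40-fold with a 95% interval of 2.09-fold to 5.52-fold in the fit of all probe sets. Of all probe sets, 0.223% had a higher log2 fold change than ADM. Between arrays of the same number its differences were 1.52, 1.88 and 1.89.

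VEGFA (ENST00000372055.8), the growth factor that drives vessel formation, had 8.04, 8.27 and 8.11 on the boric acid arrays, against 9.07, 8.38 and 8.45 on the control arrays. The groups did not overlap, but the closest arrays were only 0.11 apart. Its log2 fold change was -0.49 with a standard error of 0.19 (limma, adjusted p = 0.0689), so it did not pass. Without control array 1 the estimate was -0.28. VEGFA and ADM are both secreted products of HIF signalling, and their estimates had opposite signs here.

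Among the genes of acid handling and glucose metabolism, PDK1 was called. PDK1 (ENST00000282077.7) had 7.58, 7.47 and 7.44 on the boric acid arrays, against 9.29, 8.19 and 8.66 on the control arrays. The treated arrays lay within a narrow range, and each lay below every control array. The means were 7.50 ± 0.07 on boric acid arrays and 8.71 ± 0.55 on control arrays (SD, n = 3 each), a difference of -1.21 on the log2 scale, standard error 0.25 (limma, adjusted p = 0.00773). This is a 2.32-fold lower signal in boric acid, with a 95% interval of 1.54-fold to 3.49-fold.

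CA9 (ENST00000378357.8), a membrane carbonic anhydrase that acidifies the outside of the cell, had 6.33, 6.89 and 7.22 on the boric acid arrays, against 9.30, 7.12 and 6.91 on the control arrays. The groups overlapped, and control array 1 was more than 2 log2 units above the other control arrays. The log2 fold change was -0.97 with a 95% interval of -2.38 to 0.45 (limma, adjusted p = 0.234). In the fit of all probe sets the interval was -2.41 to 0.47. Without control array 1 the estimate was -0.20 with an interval of -0.83 to 0.43 in the fit of all probe sets, so its size rested on that array.

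PFKFB4 (ENST00000232375.7), an enzyme that sets the level of a sugar-phosphate regulator of glycolysis, was below the filter, with 1 array above it, control array 1. Its log2 signals were 5.39, 5.32 and 5.51 on the boric acid arrays, against 7.11, 5.45 and 6.18 on the control arrays. The treated arrays lay close together while the control arrays spread widely, and the groups overlapped. In the fit without a filter the log2 fold change was -0.84 with a standard error of 0.37 (limma, adjusted p = 0.156). It was -0.40 without control array 1, and -1.23 without control array 2, where it passed the threshold (limma, adjusted p = 0.0317).

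BNIP3L showed the lowest estimate of the 10 genes. BNIP3L (ENST00000380629.6) sits on the outer mitochondrial membrane and recruits the autophagy machinery. It had 7.71, 8.06 and 8.49 on the boric acid arrays, against 9.90, 9.15 and 9.23 on the control arrays. The groups were separated by 0.66. The means were 8.08 ± 0.39 on boric acid arrays and 9.43 ± 0.41 on control arrays (SD, n = 3 each), and the log2 fold change was -1.34 with a standard error of 0.25 (limma, adjusted p = 0.00584). The signal was 2.53-fold lower in boric acid, with a 95% interval of 1.67-fold to 3.85-fold. Of all probe sets, 1.19% had a lower log2 fold change than BNIP3L, and 1.74% a lower one than PDK1.

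The 2 hydroxylases of the list did not pass the test. P4HA1 (ENST00000263556.3), a catalytic subunit of the enzyme that hydroxylates collagen prolines, had 8.54, 8.76 and 8.67 on the boric acid arrays, against 9.31, 8.81 and 8.97 on the control arrays. The groups did not overlap, with only 0.05 between the closest arrays. Its log2 fold change was -0.37 with a standard error of 0.14 (limma, adjusted p = 0.0706). Whether P4HA1 passed depended on the setting. It passed at -0.49 without control array 2 (limma, adjusted p = 0.0479). With that array left out of the fit of all probe sets it did not pass (limma, adjusted p = 0.0687). Its estimate was -0.23 without control array 1. Another row of the table, which is not named, carries the same 6 values as P4HA1.

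EGLN3 (ENST00000250457.7), an oxygen-dependent prolyl hydroxylase that acts on the HIF alpha subunit and is itself a HIF target, was dim. It had 4.45, 4.42 and 4.59 on the boric acid arrays, against 4.86, 4.59 and 4.48 on the control arrays, and on 5 of 6 arrays it lay below the array's lower quartile. The groups overlapped, and in the fit without a filter the log2 fold change was -0.16 with a 95% interval of -0.44 to 0.12 (limma, adjusted p = 0.408). Whether this signal exceeded background was not measured here.

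NDRG1 and ANKRD37 showed no called difference. NDRG1 (ENST00000323851.11), a stress-responsive gene often used as a hypoxia marker, had 10.25, 9.24 and 9.54 on the boric acid arrays, against 10.34, 9.01 and 9.04 on the control arrays. The array numbered 1 was the highest of its group in both conditions, and the groups overlapped. The log2 fold change was 0.21 with a 95% interval of -0.72 to 1.15 (limma, adjusted p = 0.702). That estimate was 0.65 without control array 1, and it changed sign to -0.02 without control array 2 and to -0.07 without boric acid array 1.

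ANKRD37 (ENST00000335174.5), which encodes an ankyrin-repeat protein, had 5.55, 5.55 and 5.70 on the boric acid arrays, against 5.59, 5.42 and 5.55 on the control arrays. All 6 values were below the filter and close together. Its log2 fold change without a filter was 0.08 with a 95% interval of -0.14 to 0.29 (limma, adjusted p = 0.614). The estimate was 0.03 both without boric acid array 3 and without control array 2.

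**Figure D2:**
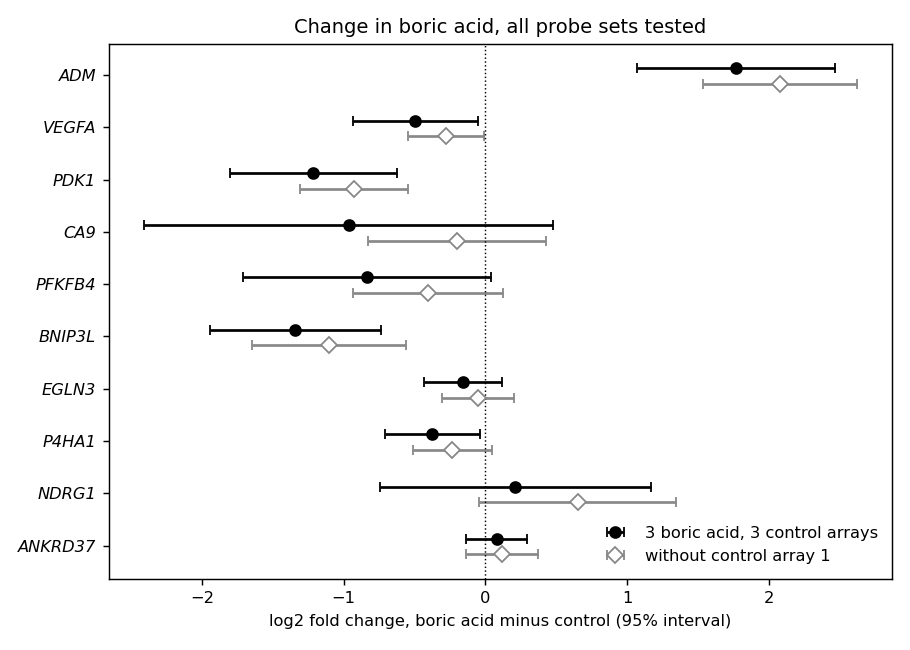
Log2 fold change, boric acid minus control, with its 95% interval from limma fitted to all 65527 probe sets. Black points use all 6 arrays and open diamonds leave out control array 1. ADM lies at 1.77, PDK1 at -1.21 and BNIP3L at -1.34, and these 3 keep their side of 0 without control array 1, whereas the CA9 estimate of -0.97 becomes -0.20.

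What the 10 genes shared most plainly was a high signal on control array 1. This was noticed after their values were seen and is given as a description. Control array 1 was the highest of the 3 control arrays for 10 of 10 genes, against 34.7% of all probe sets. Its excess over the mean of control arrays 2 and 3 was at least 0.5 on the log2 scale for 7 of the 10, against 2.49% of all probe sets. The excess was 2.29 for CA9, 1.32 for NDRG1, 1.30 for PFKFB4, 0.93 for ADM, 0.86 for PDK1, 0.71 for BNIP3L and 0.65 for VEGFA. Of all 65527 probe sets, 8 had a larger excess than CA9. The smallest excesses were 0.42 for P4HA1, 0.32 for EGLN3 and 0.11 for ANKRD37. EGLN3 and ANKRD37 were below the filter's signal level on every array. PFKFB4, with its excess of 1.30, was below that level on every array except control array 1.

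**Figure D3:**
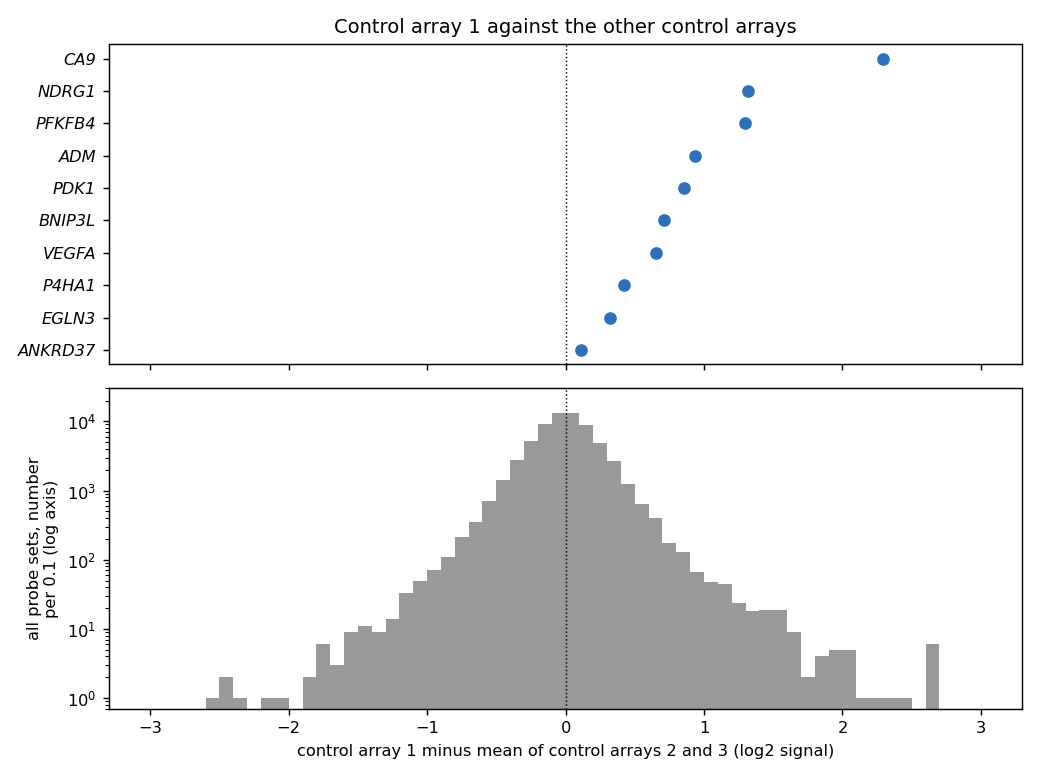
Control array 1 minus the mean of control arrays 2 and 3 (log2 signal, horizontal axis), for each of the 10 genes in the upper panel and for all 65527 probe sets in the lower panel, where the vertical log axis counts probe sets per 0.1. All 10 genes lie above 0, from 0.11 for ANKRD37 to 2.29 for CA9, while the median of all probe sets is 0.00.

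The deposited values, already quantile normalized, had nearly equal distributions on all arrays, with medians from 6.84 to 6.92. That step makes the distributions alike, so whether control array 1 was shifted as a whole before it cannot be seen. The 10 of 10 count held after repeated quantile normalization, with arrays centred on their medians and with cyclic loess. These scalings moved the already normalized values little, so the count could hardly change. The smallest excess was 0.11 in the deposited values and 0.13, 0.11 and 0.12 after the scalings in that order. Boric acid array 1 did not share the pattern: it was the highest treated array for 3 of the 10 genes (ADM, PDK1 and NDRG1) and the lowest for 4 (VEGFA, CA9, BNIP3L and P4HA1), against 37.5% and 39.4% of all probe sets. The difference between arrays numbered 1 was accordingly the lowest of the 3 number pairs for 10 of 10 genes, against 35.2% of all probe sets. A cell culture or RNA value for control array 1 is not in the labels, and its part in the pattern was not tested.

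Since control array 1 was the highest control for all 10 genes, leaving it out must raise every estimate, and the direction of these moves restates its excess. Without that array ADM was at 2.08, PDK1 at -0.93 and BNIP3L at -1.10 on the log2 scale, and all 3 passed the threshold (limma, adjusted p = 0.00268, 0.00858 and 0.0137 in that order). In that fit 35.8% of the 33710 probe sets past the filter were called, 19.6% as higher and 16.2% as lower in boric acid. The estimates of VEGFA, CA9, PFKFB4, EGLN3 and P4HA1, all negative, came nearer to 0 by more than 1.5 times, and that of NDRG1 was farther above 0.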

How the data were processed

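Total RNA of 3 boric acid and 3 control samples was measured on Affymetrix HuGene whole-transcript arrays, 1 per sample. The deposited log2 values are RMA output of the authors (corrected for background, quantile normalized and summarised over probes), per the submitters' processing notes, and the log2 scale was read from the values. A shift of all signals at once cannot be seen after quantile normalization, so changes are relative to the array. For the probe set definitions, the annotation and the genome build, no version is given in the sources used here. The number of arrays limits the precision.

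Groups and replicate numbers came from the sample titles. limma (version 3.58.1, R 4.3.3; lmFit and eBayes, no covariate, two-sided) was fitted to the 33710 probe sets past the filter, and to all 65527 for the genes below it and for values over all 10. Folds and their intervals come from the latter. Standard errors, adjusted p-values and intervals on the log2 scale come from the filtered fit unless another fit is named. The fit was tested on simulated data. The rule for named genes took all 10 members. The members, lists and tests were chosen with earlier results of these data known. Alternatives were other filters, scalings, variance models, weights, a block and leaving out each array.

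As a check of pairing, each array's deviations from its group mean were correlated across the groups. Same-numbered arrays gave 0.48, 0.17 and 0.20, all over the limit of 0.1 set for counting numbers as pairs. The reported calls come from the fit without a block, and the fit with the number as a block was an alternative. Any pairing would rest on the data, not on the labels. Crossed combinations were higher for boric acid array 2 with control array 3 (0.38) and for boric acid array 3 with control array 2 (0.21). The check therefore does not single out the numbers as pairs.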

Additional observations from a re-analysis of the deposited data

How the results depend on the processing

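ADM, PDK1 and BNIP3L kept their direction and their call under each alternative in which they were tested. Leaving out 1 array at a time gave log2 fold changes of 1.54 to 2.08 for ADM, -1.47 to -0.93 for PDK1 and -1.54 to -1.10 for BNIP3L. The same ranges were -0.07 to 0.65 for NDRG1, -0.49 to -0.23 for P4HA1, -0.62 to -0.28 for VEGFA and -1.40 to -0.20 for CA9. In the fit without a filter they were -1.23 to -0.40 for PFKFB4, -0.24 to -0.05 for EGLN3 and 0.03 to 0.12 for ANKRD37. NDRG1 changed sign, to -0.074 without boric acid array 1 and -0.017 without control array 2, with or without the filter. P4HA1 also passed with cyclic loess, at -0.42. A stricter filter, at the table's 75th percentile, removed PDK1, VEGFA and CA9, so that 1 gene was called as lower, and called 8194 probe sets in all, 4579 higher and 3615 lower, since it tested 17458. Without a filter and with each array left out in turn, chosen after seeing the data together with the block without a filter, 5044 to 7672 probe sets were called as higher. With the replicate block, limma called 16208 of the 33710 probe sets tested and 3 of the 7 genes tested. This count of 3 is no result about the genes as a group. The log2 fold changes in that fit were 1.77 for ADM, -1.21 for PDK1 and -1.34 for BNIP3L. The block changed no call among the 10 genes. Dim signal limits EGLN3, PFKFB4 and ANKRD37, which could be tested only without the filter.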
